A study of Xenopus laevis with 3 samples.

Results

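A set of 95 spotted cDNA probes, of 12680 with usable signal among 21504 spots, had a lower signal in anterior than in posterior Xenopus laevis endoderm at stage 39 and a nearly equal signal in both regions at stages 30 and 46. The probes were chosen by their ratio, which is the log2 of the anterior over the posterior background-subtracted signal minus the median of the array. A probe entered when this ratio was under -1 on both stage 39 arrays and between -0.4 and 0.4 on all 4 arrays of stages 30 and 46. Both signals also had to exceed 50 intensity units, and the spot had to be found, on all 6 arrays. The ratios therefore describe the choice of the probes and are given with no test.

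The groups were embryos of stages 30, 39 and 46, all of Xenopus laevis, whose isolated endoderm was divided into an anterior and a posterior region. No strain, genotype or treatment is given in the labels. Anterior cDNA carried Cy5 and posterior cDNA carried Cy3 on every array, with no dye exchange, so dye and region cannot be told apart. For each stage there were 2 arrays, A and B, and the labels do not say whether they held separate dissections, so errors and p-values measure the spread between hybridisations. Scanner gain was set slide by slide and each slide held 1 stage, so stage and slide cannot be told apart either.

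Anterior endoderm gives rise to the liver, pancreas, stomach and lung among other organs, and posterior endoderm gives rise to the intestine. Between the stages compared here the gut tube lengthens and coils and its organs begin to function. Homeobox genes of the Hox and caudal families mark posterior position along the gut, whereas complement and other plasma proteins are classically made by the liver. A region of tissue holds several cell types, and fewer cells of a type and less RNA per cell cannot be told apart in such samples.

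Of the 95 probes, 32 carried a usable protein name, with 30 different names. A further 17 had an annotation cut short before it named a protein, 10 gave a species only, 5 were uninformative and 31 (32.6%) had no annotated match, against 34.2% of all probes with usable signal. Names are the best database match of the clone, often to another species. Of 11 names looked up by symbol in the RefSeq genes of Xenopus_laevis_v10.1, 7 are there as both an L and an S copy, the 2 gene sets of this allotetraploid frog, and 4 as 1 copy. A cDNA probe can bind RNA of both copies.

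Median spot intensity over the probes with usable signal ran from 607 to 2988.5 in anterior and from 807 to 3037 in posterior endoderm, with the highest values on stage 30 array A. The correlation of the ratios of arrays A and B over these probes was 0.83 at stage 30, 0.95 at stage 39 and 0.93 at stage 46, and between stages it lay between 0.016 and 0.37. The probes were unevenly placed on the slide. The 8 blocks of the first column of the printing grid held 42 of the 95 (44.2%) and 23.4% of the probes with usable signal. The median ratio of that column was -0.10 and -0.13 on the stage 39 arrays, against 0.12 and 0.13 in the fourth column. With ratios centred within each block, the same limits took 125 probes, of which 55 were among the 95 and 33 (26.4%) lay in the first column. The part of slide position in the choice of the other probes was not tested.

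At stage 39 the ratio of the 95 probes was -1.26 at the median on array A, with a lowest value of -2.19 and a highest of -1.0003, and -1.27 on array B, with a lowest of -2.54 and a highest of -1.0039. The medians were 0.07 and -0.02 at stage 30 and -0.09 and -0.14 at stage 46. Arrays A and B of stage 39 differed by 0.07 at the median over the 95 probes and by 0.10 over all probes with usable signal, and the largest difference among the 95 was 0.49. The rule required both stage 39 arrays under -1 and so favoured probes whose arrays agreed, and nothing is read from this difference. Of all probes with usable signal, 5.31% (673 probes) were under -1 on both stage 39 arrays, and the 95 are those of them that lay near 0 at both other stages. With the sign turned, the same limits took 22 probes at stage 39. Applied to stage 30 the limits took 15 probes low and 11 high in anterior endoderm, and applied to stage 46 they took 13 low and 28 high.

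**Figure D1:**
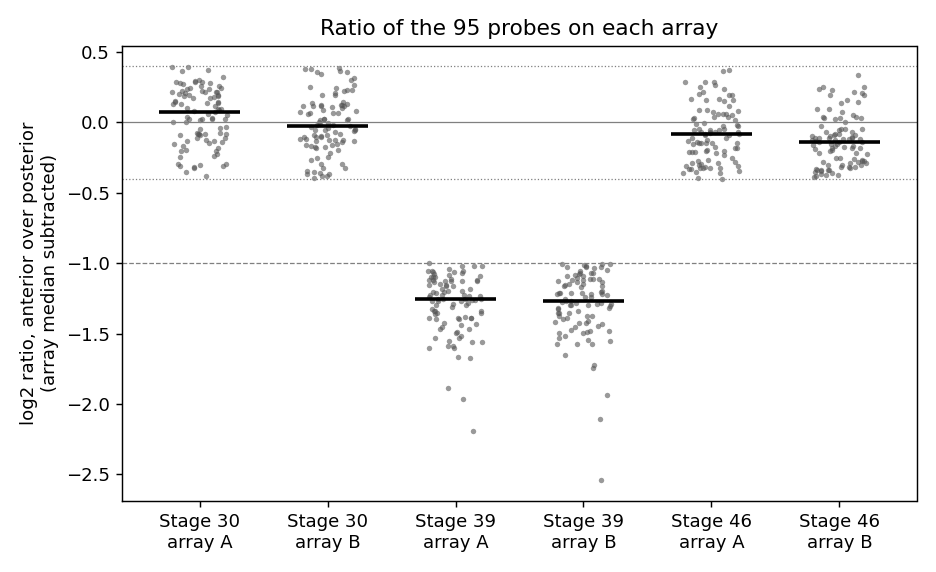
Log2 ratio of anterior over posterior signal, with the array median subtracted, of the 95 probes on each of the 6 arrays; each point is 1 probe and the bar is the median. Dashed and dotted lines mark the limits of -1 and ±0.4 that chose the probes, so the gap between the stages is set by the choice; medians are -1.26 and -1.27 at stage 39 and lie between -0.14 and 0.07 at the other stages.

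The limit on the stage 39 ratio cut through a continuum. The members closest to it were XL097j23, hSMP-1 (XL084l13) and XL060e23, whose higher stage 39 ratio was -1.0003, -1.0044 and -1.0058. Just outside were XL060c06 at -0.9999, XL061f06 at -0.9978 and XL097l17 at -0.9944. At the limit for the other stages, endodermin (XL068h01) was inside with a largest absolute ratio of 0.3958, and a probe annotated as an origin recognition complex subunit (XL076a05) was outside with 0.4008.

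The rule fixed how far apart the regions were and left free which region's signal differed between stages. To see this, signals were corrected for background, normalised within and between arrays, and read as a log2 level for each region. Over the 95 probes the median anterior level was 10.29 and 10.49 on the stage 30 arrays, 9.46 and 9.29 on the stage 39 arrays, and 10.15 and 10.01 on the stage 46 arrays. The median posterior level was 10.20 and 10.47, 10.62 and 10.24, and 10.33 and 10.14 on the same arrays. Both anterior medians of stage 39 lay below the other 4, whereas the posterior medians of the stages overlapped.

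Probe by probe, the anterior level was lower at stage 39 than at stage 30 for 89 of 95, with a median change of -0.83 (0.56-fold), and the posterior level was higher for 69 of 95, with a median change of 0.31 (1.24-fold). From stage 39 to stage 46 the anterior level was higher for 91 of 95 (median change 0.64, 1.56-fold), and the posterior level was lower for 70 of 95 (median change -0.29, 0.82-fold). Between stages 46 and 30 the medians differed by -0.11 in anterior and 0.02 in posterior endoderm. Over all 12643 probes with usable signal that are not control spots, the median changes were 0.05 (anterior) and 0.08 (posterior) for stage 39 minus stage 30, and 0.05 and -0.01 for stage 46 minus stage 39. Of these, 5913 were lower in anterior and 7092 higher in posterior endoderm at stage 39 than at stage 30. From stage 39 to stage 46, 6792 were higher in anterior and 6440 lower in posterior endoderm. The ratio chose the 95, so their counts carry no test. The posterior change from stage 30 rested on single arrays: relative to all probes it was 0.23 with all arrays, 0.0024 without stage 30 array A and 0.022 without stage 39 array A. Without stage 30 array B and without stage 39 array B it was 0.44. The posterior change from stage 39 to stage 46 was -0.28 relative to all probes, -0.0395 without stage 39 array A and -0.55 without stage 39 array B. The anterior change from stage 30 lay between -1.11 and -0.67 relative to all probes whichever array was left out.

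**Figure D2:**
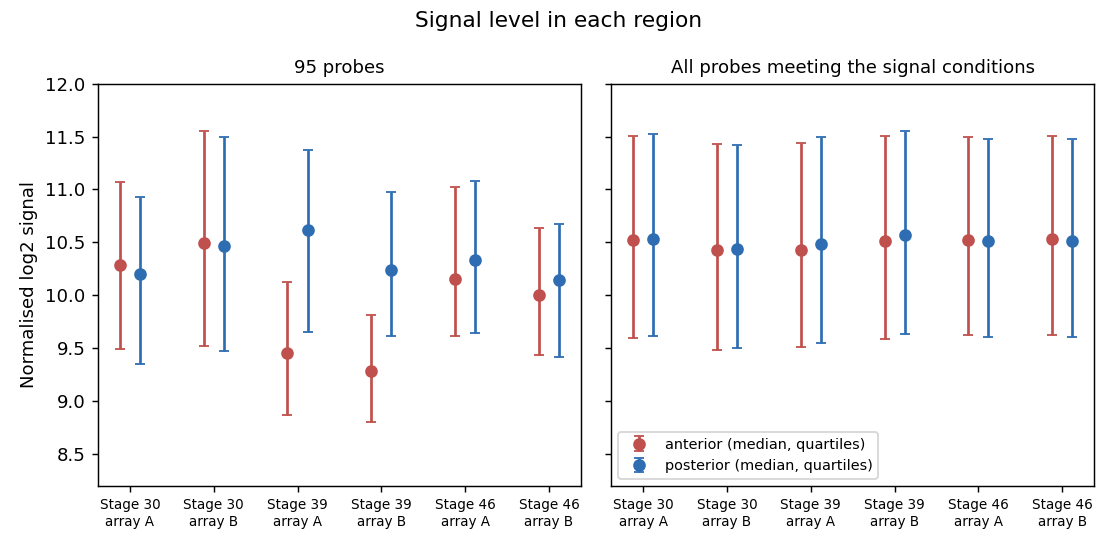
Normalised log2 signal in anterior (red) and posterior (blue) endoderm on each array, for the 95 probes at left and all 12643 probes at right; points are medians over probes and bars run from the lower to the upper quartile. In the left panel the anterior medians of stage 39, 9.46 and 9.29, lie below those of the other 4 arrays, and the medians at right stay between 10.43 and 10.57.

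The anterior level of both stage 39 arrays was under that of all 4 other arrays for 61 of the 95 probes (64.2%), where 14.8% of all probes had this order. The posterior level of both stage 39 arrays was over that of all 4 others for 18 of the 95 (18.9%), where 12.7% of all probes had it. The orders were seen together in 11 probes, the anterior one alone in 50, the posterior one alone in 7 and neither in 27. Over all 12643 probes the counts were 85, 1782, 1516 and 9260 in the same sequence. Among the other 571 probes under -1 on both stage 39 arrays the shares were 56.7% and 19.4%. Since the ratio chose the probes, these shares carry no test and nothing is read from their distance to the background.

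**Figure D3:**
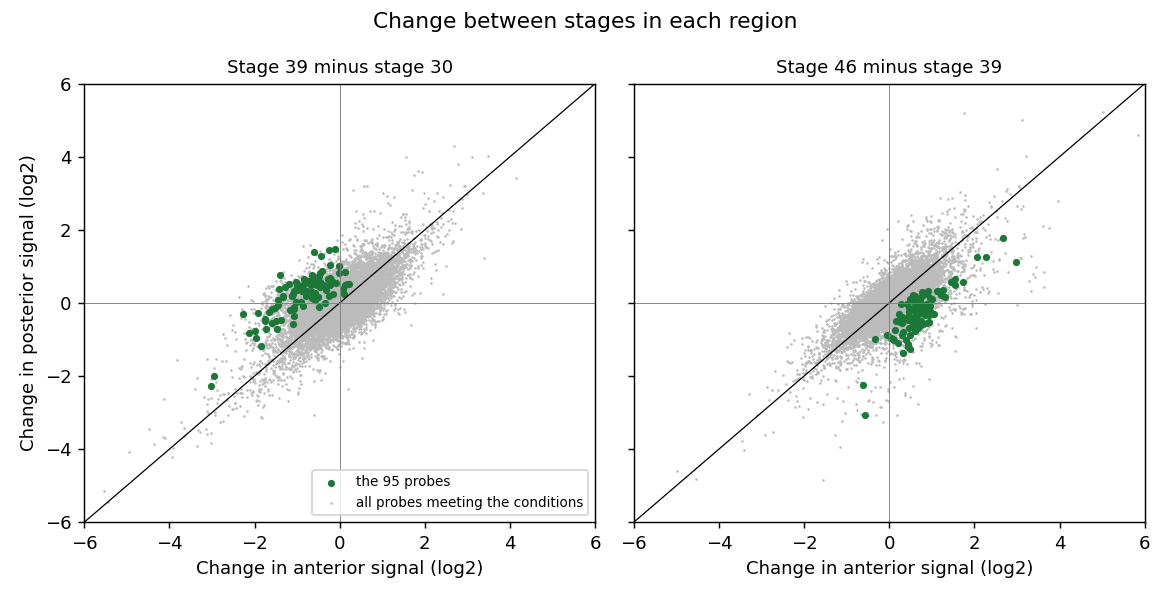
Change in posterior signal (vertical, log2) against change in anterior signal (horizontal, log2) for stage 39 minus stage 30 at left and stage 46 minus stage 39 at right; green points are the 95 probes, grey points all probes with usable signal, and the diagonal marks equal change. The 95 probes lie above the diagonal at left and below it at right, as the choice requires, with median anterior changes of -0.83 and 0.64 and median posterior changes of 0.31 and -0.29.

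Faint anterior signals limit these levels. At stage 39 the anterior signal was well above background, by over 2 SDs of the local background, on both arrays for 44 of the 95 probes (46.3%), on 1 array for 28 and on neither for 23. Of all 12680 probes with usable signal, 65.5% had such an anterior signal on both arrays and 1722 probes on neither. The posterior signal was well above background on both arrays for 72.6% of the 95 and 70% of all probes. The rule asked for a low anterior over posterior ratio, so these shares carry no test. For 23 probes both regions were well above background on all 6 arrays. In these the anterior level was lower at stage 39 than at stage 30 for 23 of 23 (median change -1.02) and the posterior level higher for 17 (median change 0.42). At stage 46 relative to stage 39 the anterior level was higher for 22 of 23 (0.62) and the posterior level lower for 22 of 23 (-0.56). Of all 3550 probes with such signals, 1594 were lower in anterior and 2081 higher in posterior endoderm at stage 39 than at stage 30. From stage 39 to stage 46, 1952 were higher in anterior and 1840 lower in posterior endoderm. The anterior level of both stage 39 arrays was under that of all 4 others for 16 of the 23 (69.6%), where 13.4% of the 3550 had this order. The posterior level of both stage 39 arrays was over that of all 4 others for 11 of the 23 (47.8%), where 13.2% of the 3550 had it. The orders were seen together in 7 of the 23 and neither in 3, where 27 of the 3550 had both and 2630 neither. The ratio chose the 23, so their counts and shares carry no test.

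The mean level of both regions was tested between stages, but this test is not independent of the rule. The rule set no limit on the change of the mean between stages. It did require a minimum signal in both regions on every array. The mean is also built from the same anterior and posterior signals as the ratio that chose the probes. Whether the choice itself shifted the mean at stage 39 was not tested. Of the 88 probes that passed the filter on signal over background, 4 fell between stages 30 and 39 and 0 rose in the limma fit over all probes (Benjamini-Hochberg adjusted p under 0.05), where 1.2% of 15136 probes fell and 0.72% rose. The other 7 probes did not exceed the local background by the required margin on enough arrays and were not tested. The median change was -0.25 over the 88 probes and 0.04 over all probes tested. Without adjustment, 21 of the 88 had a limma p under 0.05, as had 19.7% of all probes. In simulated data with the same spread, 100 of 11791 probes were changed by 1 on the log2 scale, 100 by 3 and the rest not at all. The fit found 1% of the probes changed by 1 and 85% of those changed by 3, so the smaller changes were mostly not detected there. The adjusted threshold depends on the share of changed probes, so these rates need not hold for the measured data.

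The 4 that fell were Ser dehydratase, T3dh and a pair of clones without a usable name, XL110p05 and XL061e07, which were chosen after their values were seen. Ser dehydratase (XL102h06), the enzyme that turns serine into pyruvate, had anterior levels of 9.84 and 9.66 and posterior levels of 10.78 and 10.73 at stage 39, against 12.49 and 12.90 and 12.59 and 12.93 at stage 30. Every stage 39 level lay below every stage 30 level, and the mean level fell by 2.47 ± 0.31 (SE, n = 2 arrays a stage, limma adjusted p = 0.0272). Each region of this probe was well above background on only 1 of the stage 39 arrays. XL110p05 fell by 2.64 ± 0.35 (adjusted p = 0.0288 in the same limma fit). T3dh (XL057d11), whose annotation is a Drosophila alcohol dehydrogenase, had anterior levels of 9.80 and 9.51 and posterior levels of 11.27 and 10.81 at stage 39, against 11.78 and 11.78 and 11.99 and 11.71 at stage 30. Its levels also did not overlap, and it fell by 1.47 ± 0.23 (limma adjusted p = 0.0426). XL061e07 fell by 1.37 ± 0.22 (limma adjusted p = 0.0442). Over 13 alternatives the calls of Ser dehydratase, XL110p05, T3dh and XL061e07 held in 9, 8, 6 and 6, with highest limma adjusted p of 0.147, 0.163, 0.194 and 0.198. With 1 array left out, the count of probes past the threshold among the 95 ran from 0 (without either stage 39 array) to 8 (without stage 30 array A), and it was 1 without stage 30 array B or either stage 46 array.

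From stage 39 to stage 46, 0 of the 88 rose (0.397% of 15104 probes rose) and 1 fell (0.225% fell). An unadjusted p under 0.05 in limma was found for 14 of the 88 and for 16.5% of all probes. The probe that fell was XL107h01, whose annotation is cut after "glycine am" and which was chosen after its value was seen (change -1.81 ± 0.25, SE, n = 2 arrays a stage, limma adjusted p = 0.0452). This call held under 4 of 13 alternatives, with limma adjusted p from 0.0308 to 0.197, and was lost when any stage 39 or stage 46 array was left out. Its background-subtracted signals at stage 46 were 4601 and 4430 in anterior and 4863 and 5058 in posterior endoderm, against 12778 and 12314 and 45282 and 46365 at stage 39. At stage 30 between 91% and 94% of its pixels were saturated in both regions on both arrays, so its stage 30 ratio near 0 cannot show equal amounts of RNA. Between stages 46 and 30, 24 of the 88 had an unadjusted p under 0.05 in limma, as had 25.1% of all probes. Past the adjusted threshold, 4 of the 88 fell and 0 rose (2.63% and 3.08% of 15060 probes). These were XL107h01 (-2.14 ± 0.25, limma adjusted p = 0.0149, with the saturated stage 30 spots), Ser dehydratase (-2.53 ± 0.31, limma adjusted p = 0.0157), T3dh (-1.48 ± 0.23, limma adjusted p = 0.0259) and XL061e07 (-1.19 ± 0.22, limma adjusted p = 0.0377).

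Among regulators of position and cell identity, the 95 probes held HOX-B9, HOX-A11, Xcad-3, paraxial protocadherin, Xdsh, endodermin and an X-box binding protein. HOX-A11 (XL108b03), a homeobox factor of the posterior body, had ratios of -0.08 and 0.14 at stage 30, -1.22 and -1.42 at stage 39, and 0.05 and -0.11 at stage 46. Its background-subtracted signals on the stage 39 arrays were 299 and 249 in anterior and 671 and 654 in posterior endoderm, and both regions were well above background on all 6 arrays. The posterior level was 9.38 and 9.18, 9.62 and 9.83, and 9.08 and 8.87 at the 3 stages in order, so stage 39 was above both other stages, whereas anterior levels of stages 39 and 46 overlapped.

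HOX-B9 (XL056o19), another homeobox factor of posterior identity, had stage 39 signals of 371 and 354 in anterior and 955 and 979 in posterior endoderm, with ratios of -1.42 and -1.49. Its ratios were all negative at the other stages too, from -0.39 to -0.28. The anterior signal was well above background on neither stage 39 array. On the normalised levels it was 2.21-fold lower than the posterior signal, and by the mean ratio that chose the probe 2.74-fold lower. The levels carry an offset of 50, which makes the fold of a faint spot smaller. They also differ from the ratio in background correction and in normalisation within arrays. The fold on the levels leaves out the spread between arrays and sets no lower limit. On the same levels Xcad-3 (XL075a17), a homeobox factor of the caudal family, was 1.81-fold lower in anterior endoderm, with stage 39 ratios of -1.34 and -1.36. Xdsh (XL0c2a01), the Dishevelled protein of Wnt signalling, was 1.35-fold lower, with ratios of -1.16 and -1.05. Neither had an anterior signal well above background on a stage 39 array. For HOX-B9, Xcad-3 and Xdsh the posterior signal was well above background on 1 of the stage 39 arrays.

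Endodermin (XL068h01), a Xenopus marker of endoderm related to alpha-2-macroglobulin, had the largest posterior change of these genes. Its anterior level was 11.81 and 12.07, 11.24 and 11.42, and 11.92 and 11.73 at stages 30, 39 and 46. Its posterior level was 11.38 and 11.90, 12.90 and 13.16, and 11.77 and 11.80. On the stage 39 arrays the anterior level was thus below, and the posterior level above, every level of that region at the other stages, although each region was well above background on 1 of them. Paraxial protocadherin (XL068l24), a cell adhesion protein of early paraxial mesoderm, had ratios of -1.35 and -1.21 at stage 39, and its anterior level there, 9.99 and 9.92, lay below the 10.48 to 11.80 of the other arrays. Its posterior level had no such peak, at 11.11 and 11.74, 11.31 and 11.04, and 10.56 and 10.64. The X-box binding protein (XL065g02), a transcription factor of secretory cells, had ratios of -1.49 and -1.32 at stage 39 with anterior signals of 175 and 145.

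The probes for plasma proteins and liver enzymes included 3 for complement C3, the central protein of the complement cascade, and at stage 39 these were the brightest with a usable name. Probe XL109m09 had background-subtracted signals of 26251 and 22745 in anterior and 61261 and 58618 in posterior endoderm on the stage 39 arrays, with ratios of -1.28 and -1.39. At stage 46 it had 21977 and 20229 in anterior and 30849 and 27892 in posterior endoderm, with ratios of -0.21 and -0.18. Probes XL092b08 and XL109m15 had stage 39 ratios of -1.22 and -1.15, and of -1.13 and -1.24. The posterior levels of the 3 probes on the stage 39 arrays lay between 15.94 and 16.38, above the 14.20 to 15.60 of the other stages. The levels set the regions further apart than the ratios did. For XL109m09 the mean stage 39 ratio was -1.99 on the levels and -1.33 by the ratio that chose it. From stage 39 to stage 46 they changed by -0.87, -1.36 and -1.21 in posterior and by 0.50, 0.33 and 0.44 in anterior endoderm. At stage 30, however, 95% of anterior and 91% of posterior pixels of XL109m09 were saturated on array A, and 18% and 14% on array B. On array A the shares were 84% and 37% for XL109m15 and 39% and 29% for XL092b08. The stage 30 ratios and levels of complement C3 are therefore compressed, and the size of its change from stage 30 is not known. For XL109m09 the array A signals at stage 30, 65272 in anterior and 64711 in posterior endoderm, came from mostly saturated pixels. The direction of its change from stage 30 is thus not known either. In posterior endoderm on the stage 39 arrays 16% and 16% of the pixels of XL109m09 were saturated, 12% and 7% of those of XL092b08 and 12% and 5% of those of XL109m15, and no anterior pixel was, so saturated pixels also enter its stage 39 posterior levels and ratios.

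Complement C8 (XL061p21), a part of the membrane attack complex, had ratios of -1.56 and -1.45 at stage 39, with signals of 211 and 190 in anterior and 596 and 512 in posterior endoderm, and each region was well above background on 1 of these arrays. Riboflavin-binding protein (XL057n08) is a vitamin carrier known from the chicken egg. Its normalised anterior level was 1.76-fold below the posterior level at stage 39, with no anterior signal well above background. Its stage 39 arrays stood furthest apart among the named probes, with ratios of -1.67 and -1.17. For Ser dehydratase the ratios were -1.02 and -1.22 at stage 39, in levels that had fallen in both regions. Each region was well above background on 1 of these arrays.

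Of the enzymes of nucleotide synthesis and the cell cycle, IMP dehydrogenase (XL091d21), which makes guanine nucleotides, had signals of 1712 and 1153 in anterior and 4026 and 2837 in posterior endoderm at stage 39. Its anterior level of 10.89 and 10.52 lay below the 11.45 to 12.32 of the other 4 arrays, and its posterior levels overlapped between stages. Amidophosphoribosyltransferase (XL060e17), which commits precursors to purine synthesis, had ratios of -1.30 and -1.41 at stage 39 with both regions well above background on 1 array only. Cyclin B3 (XL062m01), a cyclin of mitosis and meiosis, had ratios of -1.56 and -1.45 at stage 39. Its normalised anterior level was 2.26-fold lower, with no anterior signal well above background at stage 39. The probe of M-phase inducer phosphatase 2 (XL109e21), of the Cdc25 family that starts mitosis, was well above background in neither region at stage 39, and no fold is given.

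The probes for energy metabolism and transport were led by ubiquitous creatine kinase (XL101k05), which stores the energy of ATP as phosphocreatine. Its stage 39 signals were 6136 and 3817 in anterior and 14934 and 9739 in posterior endoderm, with ratios of -1.34 and -1.37. The anterior level of 12.59 and 12.08 was the lowest of the 6 arrays and just under the 12.77 and 12.78 of stage 46. At stage 30 array B, 21% of anterior and 18% of posterior pixels were saturated.

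T3dh had ratios of -1.53 and -1.48 at stage 39, with signals of 725 and 480 in anterior and 2010 and 1320 in posterior endoderm, and both regions were well above background on all 6 arrays. Cytochrome-c oxidase (XL073a02), of the respiratory chain, had ratios of -1.19 and -1.29, and its anterior levels at stages 39 and 30 overlapped. The X,K-ATPase (XL102j05), an ion pump, had -1.24 and -1.27. The probe annotated as a glutathione S-transferase (XL091m03), of the family that conjugates glutathione, had -1.13 and -1.02. For this probe and the X,K-ATPase each region was well above background on 1 of the stage 39 arrays. The low-affinity glucose transporter (XL088i17) had -1.12 and -1.13. Its normalised anterior level was 2.04-fold lower, with no anterior signal well above background at stage 39. A protein annotated to the brush border (XL084b01) had -1.04 and -1.17, and NADH dehydrogenase (XL058f01), also of the respiratory chain, was well above background in neither region at stage 39.

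Among matrix and other proteins, fibulin-1 (XL091e22) of the extracellular matrix had ratios of -1.12 and -1.12 at stage 39. Its posterior level was 9.78 and 9.53, 10.38 and 10.17, and 9.41 and 9.25 at the 3 stages, highest on both stage 39 arrays, whereas its anterior levels at stages 39 and 46 overlapped. Thrombospondin 4 (XL106f03), another matrix protein, had -1.02 and -1.19. Ubiquitin-conjugating enzyme E2 G (XL061e09), which passes ubiquitin to proteins, had -1.15 and -1.21. An inositol trisphosphate-binding protein (XL061n10) had -1.27 and -1.01, with each region well above background on 1 of the stage 39 arrays. The pol protein (XL069f13) and the envelope polyprotein (XL071k21), both names of retroviral proteins, had -1.16 and -1.09, and -1.26 and -1.40. The probe hSMP-1 (XL084l13) had -1.06 and -1.0044, and both regions were well above background on all 6 arrays.

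**Figure D4:**
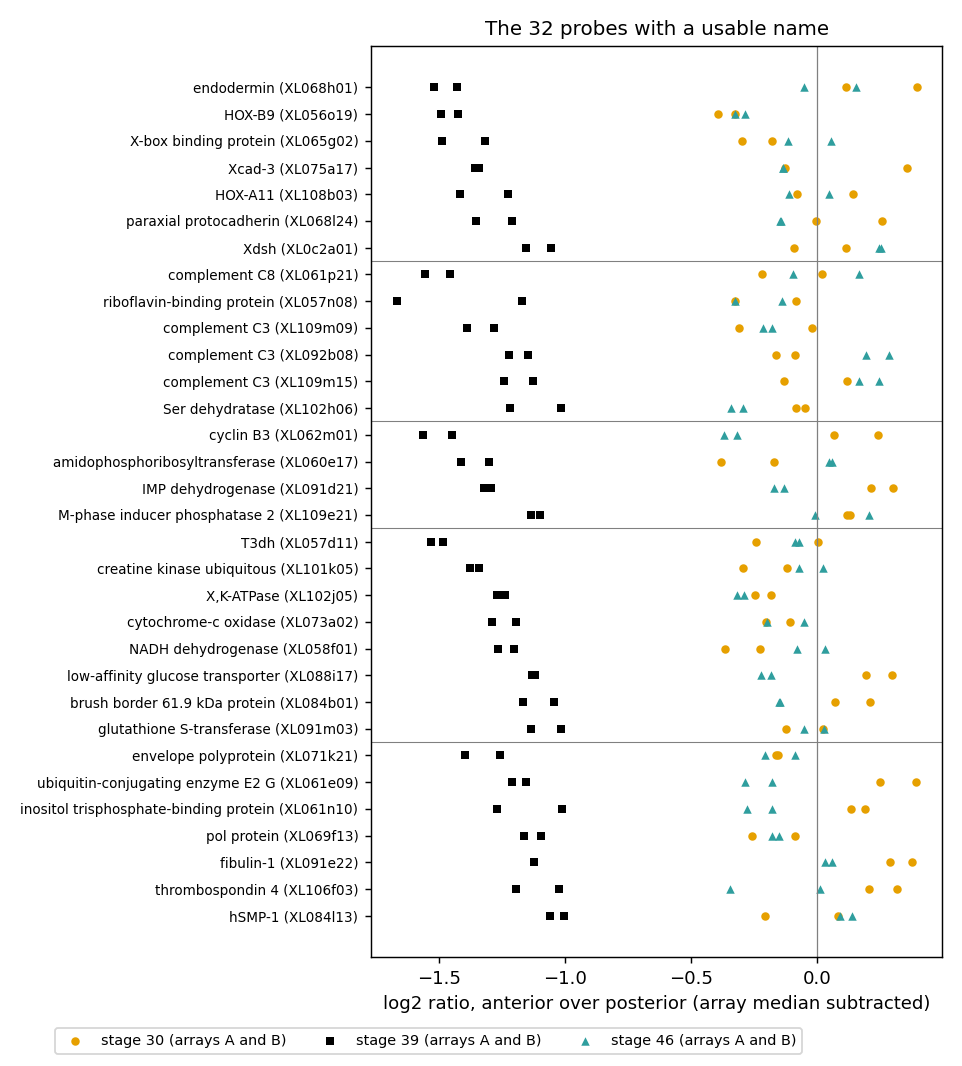
Log2 ratio of anterior over posterior signal, with the array median subtracted, of the 32 probes with a usable name, grouped by role and separated by grey lines; each symbol is 1 array, with circles for stage 30, squares for stage 39 and triangles for stage 46. Stage 39 ratios run from -1.67 (riboflavin-binding protein, array A) to -1.0044 (hSMP-1, array B), and the choice keeps the other stages within 0.4 of 0.

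The lowest mean stage 39 ratios belonged to probes without a usable name. XL089f17, with an annotation cut after "th", had -2.19 and -2.54, but its signal differed between the stage 39 arrays, at 934 and 103 in anterior and 4100 and 589 in posterior endoderm. Of the clones with no annotated match, XL096c19 had -1.96 and -2.11, with signals of 151 and 164 in anterior and 566 and 696 in posterior endoderm. XL056a22 had -1.67 and -1.74, XL066e15 had -1.53 and -1.56, XL062m12 had -1.47 and -1.57, and XL061k24 had -1.52 and -1.43. For these 5 clones without a match the anterior levels of both stage 39 arrays lay below those of the other 4 arrays. Of all probes, 14.8% had this order. The 5 were picked by their low stage 39 ratio, which favours a low anterior level, so nothing is read from it. Some members were neighbours on the slide: 4 pairs lay on touching spots, among them amidophosphoribosyltransferase with cyclin B3, XL107h01 with XL107h05, and complement C3 (XL109m09) with XL109m13.

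Other probes that share a name give a view of how far a name, rather than a clone, held the pattern, on the same arrays. The 30 names had 100 probes with usable signal, 32 of them members. Of the other 68, 11 were under -1 on both stage 39 arrays (5.31% of all probes were) and 36 had a negative mean stage 39 ratio. The median of this mean over all probes with usable signal was -0.0019, so a negative sign alone does not mark the pattern.

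For HOX-B9 both other probes were under -1 on both stage 39 arrays, with means of -1.14 and -1.36. For endodermin the other probe had a mean of -1.23 at stage 39, and 0.54 and 0.43 at stages 30 and 46, which kept it out. For complement C3, 4 of 4 other probes were negative. The remaining Xenopus C3 probes, XL073e22 and XL092d13, had means of -1.56 and -1.26 at stage 39, against -0.42 and -0.46 at stage 30. The probes matched to chicken C3 had -0.86 and -0.49 at stage 39 and 1.10 and 1.43 at stage 46.

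Other names split further. T3dh had 2 of 3 other probes under -1 on both stage 39 arrays, glutathione S-transferase 2 of 2 and riboflavin-binding protein 1 of 2. The 7 other X-box binding protein probes were negative at stage 39, 1 of them under -1 on both arrays, with stage 46 means from 0.60 to 1.68. Of the 4 other Ser dehydratase probes 2 were negative and none was under -1 on both arrays. For M-phase inducer phosphatase 2, 0 of 19 other probes were negative, and for the cytochrome-c oxidase annotation, which covers several subunits, 3 of 8 were. The other IMP dehydrogenase probes had stage 39 means of -0.12, 0.09 and 0.15. The other probe had a mean of 0.07 for amidophosphoribosyltransferase, 0.15 for complement C8 and 0.04 for NADH dehydrogenase. The other probes of Ser dehydratase, M-phase inducer phosphatase 2, cytochrome-c oxidase, IMP dehydrogenase, amidophosphoribosyltransferase, complement C8 and NADH dehydrogenase thus did not hold the pattern. No other probe of paraxial protocadherin, thrombospondin 4, ubiquitin-conjugating enzyme E2 G or pol protein was under -1 on both stage 39 arrays. The same held for the brush border protein and the low-affinity glucose transporter, and most probes of these further names had negative means.

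**Figure D5:**
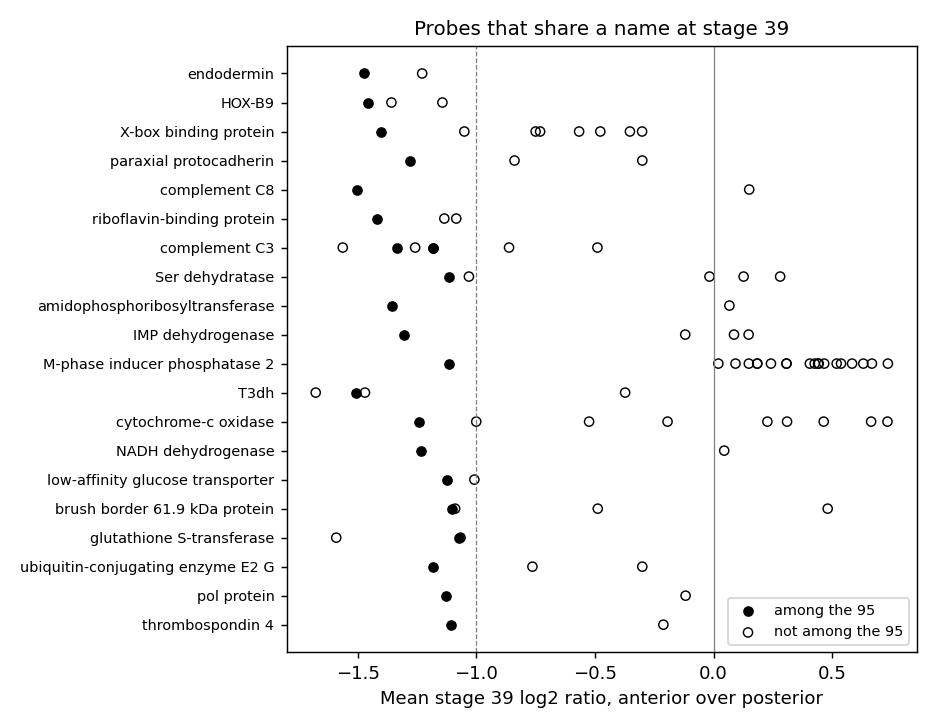
Mean stage 39 log2 ratio of anterior over posterior signal for every probe with usable signal that shares a name with a member, for the names with at least 1 other probe; filled circles are among the 95 and open circles are not. Both open circles of HOX-B9 lie left of the dashed line at -1, and the 19 of M-phase inducer phosphatase 2 lie right of 0.

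Lists of genes by annotation words placed the members among the other genes of their pathways. Of 21 posterior patterning probes with usable signal, 7 were under -1 on both stage 39 arrays (5.31% of all probes were) and 2 were members, HOX-B9 and HOX-A11 (0.749% of all probes were). The member Xcad-3 of the caudal family is not among the 21, since the words did not match its name. The other 5 included HOX-A10 with a mean of -2.05 at stage 39, and 0.0041 and -0.78 at stages 30 and 46, and HOX4E with -2.06, and 0.50 and -0.76. The words of this list were hox, cdx, caudal, posterior protein, evx, brachyury and wnt, and all 7 probes under -1 were annotated as Hox. Over this mixed list the median was -0.01, -0.04 and 0.02 at the 3 stages, close to 0 at each stage.

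Of 43 probes of liver secreted proteins, 12 were under -1 on both stage 39 arrays and 4 were members, the 3 for complement C3 and the 1 for complement C8. The median of this list was 0.08, -0.79 and 0.17. Its share of all signal at stage 39 was 0.688% and 0.675% in anterior, against 1.42% and 1.36% in posterior endoderm, and at stage 46 it was 0.766% and 0.731% in anterior, against 0.897% and 0.836% in posterior endoderm. Of 22 probes of liver metabolism, 12 were under -1 on both stage 39 arrays and 0 were members (the words missed the member spelled Ser dehydratase), and their median was -0.62 at stage 30, -1.18 at stage 39 and -0.03 at stage 46. Of 111 probes of the cytosolic ribosome, none was under -1 on both stage 39 arrays. The same held for the 12 intestine and 56 mitochondrial respiration probes that the list words found, but these words missed the members cytochrome-c oxidase, NADH dehydrogenase and the brush border protein. In the cell cycle list 2 of 85 were under -1 and 1 was a member, and in membrane transport 7 of 45 and 2.

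Markers of some other tissues were also low in the stage 39 ratio. Of 74 skeletal muscle probes, 10 were under -1 on both stage 39 arrays, with troponin and myosin probes among them, and the 1 member that the words found was ubiquitous creatine kinase, which by its name is not a form particular to muscle. The median of this list was 0.07, -0.38 and -0.04 at the 3 stages. The muscle share of all signal at stage 39 was 0.574% and 0.588% in anterior, against 0.673% and 0.669% in posterior endoderm. Ciliated cell probes had 9 of 14 under -1, with a median already at -0.94 at stage 30 and -1.41 at stage 39, and shares at stage 39 of 0.0586% and 0.0735% in anterior, against 0.0924% and 0.0977% in posterior endoderm. Most of these 9 shared the annotation tubulin alpha-2 chain, a name not particular to ciliated cells, and the others were tektins. Epidermis probes had 3 of 31, with medians of -0.11 at stage 30 and -0.19 at stage 39, and shares at stage 39 of 0.189% and 0.189% in anterior, against 0.240% and 0.234% in posterior endoderm. The epidermis share was also lower in anterior endoderm at stage 30, with 0.447% and 0.505% in anterior, against 0.542% and 0.634% in posterior endoderm. Notochord, cartilage and fibroblast probes had 1 of 26 under -1, nerve probes 1 of 24, blood cell probes 2 of 25, and exocrine pancreas and pronephros probes 0 of 3 each. All of these probes had signal over 50 units, as the conditions require. The part of muscle, ciliated or epidermal cells in the 95 probes was not tested.

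The authors' deposited table, which holds 1 normalised ratio per clone and stage, gave a value for 91 of the 95 probes at stage 39, and their median there was -1.48 on the log2 scale, against -0.21 over all probes with usable signal. Of these 91, 89 lay more than 1 below that median. The deposited ratio belongs to the same samples, and the rule had required a ratio under -1 on both stage 39 arrays. This count is therefore no independent check and no test. At stages 30 and 46 the authors' deposited table gave medians of 0.08 (66 probes) and -0.21 (91 probes). Across probes its log2 values correlated with the ratios used here with r of 0.997, 0.987 and 0.997 at the 3 stages.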

How the data were processed

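Median pixel intensity of each spot and of its local background, per dye, was taken from the deposited scanner files, which hold linear values without correction. The deposited files also give the percent of saturated pixels and a score that marks spots not found. The authors also deposited a normalised ratio for every clone and stage, made with GeneData Refiner and Expressionist per the labels, with versions not given in the sources used here. Its log2 was used for comparison only.

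For the choice of probes, plain background-subtracted ratios were centred on the array median. Levels were computed in R 4.3.3 with limma 3.58.1 and data.table (version 1.17.8): normexp background correction (offset 50), loess within arrays (span 0.3), Aquantile between arrays, without 231 control spots. A region's level is the normalised log2 signal of its dye. Mean levels of probes well above background, by 2 background SDs, on at least 2 arrays were tested in 1 limma fit over 6 arrays with a mean per stage, 3 residual degrees of freedom, two-sided, Benjamini-Hochberg over all probes, threshold 0.05. The fit was tested on simulated data. For a named probe with no anterior signal well above background at stage 39, the fold sets the normalised posterior mean against its own anterior mean. Its own anterior signal was, per array, higher than the lowest anterior signal well above background. Such a fold is a measured value and no lower limit. For each of these faint probes it was smaller than the fold of the plain ratio. The levels carry the offset of 50, and they also differ from the plain ratio in background correction and loess. The part of each step was not tested. Precision is limited by the number of arrays.

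Named are all members with a usable annotation, the 5 clones without a match that had the lowest stage 39 ratio, and members past the level threshold. XL089f17, the probes nearest the limits and the neighbours on touching spots were named after their values were seen. The members and the gene lists were chosen with earlier results of these data known. The labels give no replicate numbers that pair arrays across stages. Changes of levels in arrays A and B from stage 30 to stage 39 correlated across probes (r 0.36). Alternatives covered background correction, normalisation, filters, an array-letter block and leaving out each array. No probe sequences or genome positions were used here.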

Additional observations from a re-analysis of the deposited data

How the results depend on the processing

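Membership and the level test depended on the processing. Normexp and loess ratios took 68 probes, 40 of them among the 95, with a median stage 39 ratio of the 95 of -1.04, and the authors' deposited ratio gave -1.48. Of the 32 named probes, 11 stayed under loess and 20 with ratios centred within blocks. T3dh, amidophosphoribosyltransferase, paraxial protocadherin, cytochrome-c oxidase, ubiquitous creatine kinase and the complement C3 probes XL092b08 and XL109m15 stayed under both. HOX-B9, IMP dehydrogenase, the low-affinity glucose transporter and the brush border protein stayed under loess alone. Xcad-3, Xdsh, riboflavin-binding protein, fibulin-1, ubiquitin-conjugating enzyme E2 G, the inositol trisphosphate-binding protein, hSMP-1 and M-phase inducer phosphatase 2 stayed under neither. The other named probes, with HOX-A11, endodermin and complement C3 (XL109m09) among them, stayed with block centring alone. Leaving out 1 array took 114 to 151 probes. The rule then had fewer conditions to meet, which favours a larger count, so nothing is read from this rise. On 1 stage 39 array alone the median ratio of the original 95 was -1.27 or -1.26, where the rule had set both arrays under -1. With no normalisation between arrays, 62 of the 88 tested were called from stage 30 to 39 (6121 of all probes), nearly all lower. From stage 39 to 46, 0 of the 88 were called (14 of all probes). For that change 3 had an unadjusted p under 0.05 in limma (1450 of all probes). From stage 30 to 46, 77 were called (10747 of all probes), nearly all lower. Without the filter on signal over background the first count was 2. The count for stage 46 minus stage 39 was 1 in the reported fit. It was 0 by limma with plain background subtraction, median scaling or no such filter. An unadjusted limma p under 0.05 was then found for 14 and 13 of the 88 tested, and for 16 of the 95 without the filter. Over all probes it was found for 2492, 2364 and 2880. The count over all probes was 151 under the rule's signal conditions (94 in the reported fit). With array letter as a replicate block, 0, 0 and 2 of the 88 tested were called, and 54, 1 and 207 of all probes. At an unadjusted p under 0.05 in limma there were 18, 12 and 20 of the 88, and 2453, 1995 and 3195 of all probes. The array letters share only a name, so this block is no pairing of dissections. With 1 array left out, calls among the 95 ran from 0 to 8 for stage 39 minus 30 (0 to 824 of all probes), from 0 to 2 for stage 46 minus 39 (0 to 308) and from 0 to 7 for stage 46 minus 30 (6 to 1066). The lone array of a stage was then assumed to vary like the others. Of 117 values of single called probes under an alternative, 68 stayed past the threshold, 49 did not and 0 changed direction.

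Relative to all probes, the median anterior change for stage 46 minus 39 was 0.59, and 0.73 with plain subtraction. The posterior change was -0.28, and -0.54 over the 23 probes well above background throughout. With 1 array left out the anterior changes were -1.11 to -0.67 and 0.43 to 0.72, and the posterior changes 0.0024 to 0.44 and -0.55 to -0.0395. The cause was not tested. Faint anterior signals at stage 39 and saturation at stage 30 limit the measured ratios, and leaving out saturated spots took 87 probes.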
